A study of Mus musculus with 12 samples.

Results

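The miRNAs described here are guide strands of the miR-17~92 cluster and of its paralogous clusters, miR-106b~25 and miR-106a~363. They were chosen by name and not by a measured value, and comprise 10 of the 1881 miRNAs on the array. Other guide strands of miR-106a~363 are not among them. The 4 miRNAs mmu-miR-17-5p, mmu-miR-18a-5p, mmu-miR-19a-3p and mmu-miR-20a-5p are encoded by miR-17~92 alone. Both miR-17~92 and miR-106a~363 encode mmu-miR-19b-3p and mmu-miR-92a-3p, miR-106a~363 alone encodes mmu-miR-20b-5p, and miR-106b~25 encodes mmu-miR-106b-5p, mmu-miR-93-5p and mmu-miR-25-3p. The prefix mmu, for mouse, is left out from here on.

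MiRNAs were profiled in heart muscle of male C57BL6/J mice aged 5 months, with 3 mice and 1 array per mouse in each of 4 groups. Control mice (C) and control mice given the monoamine oxidase inhibitor pargyline (C + P, 50 mg/kg/day for 12 weeks) were compared with mice made diabetic by streptozotocin (D, 50 mg/kg/day for 5 days) and with diabetic mice given pargyline at the same dose (D + P). C and D mice received vehicle for the 12 weeks, and a mouse was counted as diabetic at a blood glucose of 17 mM or more. All groups were wild type, streptozotocin destroys the insulin-producing beta cells, and pargyline reached the whole animal, so neither treatment was limited to the heart. RNA of whole tissue was used, in which fewer cells of a type and less RNA per cell cannot be told apart. The vehicle groups shared 1 slide and the pargyline groups another, so pargyline and slide cannot be told apart. On each slide row 1 held non-diabetic and row 2 diabetic mice, so diabetes and array row cannot be told apart either.

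A miRNA guides silencing complexes to mRNAs mainly through its seed, the bases after the first at the 5′ end, so miRNAs that share a seed share most of their predicted targets even when they come from different loci. Each of the 3 clusters is transcribed as 1 primary RNA, from which the individual hairpins are cut, and their mature levels can still differ through processing and stability. The family promotes proliferation and cell survival. Members with the miR-17 seed repress the cell cycle inhibitor Cdkn1a and the pro-apoptotic Bcl2l11, miR-92a restrains vessel growth in endothelium, and miR-25 represses the calcium pump gene Atp2a2 in cardiomyocytes. Deletion of miR-17~92 in mice causes defects of heart and lung development.

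Mature sequences are shown because the members fall into 4 seed groups that cut across the clusters, and because members of a group differ at so few bases that array probes may not separate them. They are RefSeq sequences on GRCm38.p6, matched by name for 10 of 10 members, 5′ to 3′ with the seed (bases 2 to 8) in capitals.
miR-17-5p: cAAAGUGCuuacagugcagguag
miR-20a-5p: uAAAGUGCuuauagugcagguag
miR-20b-5p: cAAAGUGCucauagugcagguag
miR-93-5p: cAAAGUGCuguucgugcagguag
miR-106b-5p: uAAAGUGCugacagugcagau
miR-18a-5p: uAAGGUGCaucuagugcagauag
miR-19a-3p: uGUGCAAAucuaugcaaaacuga
miR-19b-3p: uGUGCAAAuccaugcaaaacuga
miR-92a-3p: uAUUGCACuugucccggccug
miR-25-3p: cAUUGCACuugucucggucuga

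The seed AAAGUGC is shared by 5 members, and 7 mature mouse miRNAs in the RefSeq table carry it, miR-106a-5p and miR-6383 being the other two. MiR-18a-5p differs from miR-17-5p by 1 base within the seed, A4G, counted from 1 at the 5′ end with the base of the first-named miRNA first. The pair with the seed GUGCAAA, miR-19a-3p and miR-19b-3p, differs by 1 base, U11C. MiR-20a-5p and miR-20b-5p differ by 2 bases, U1C and U10C, and miR-17-5p differs from miR-20a-5p by 2 bases, C1U and C12U. MiR-92a-3p and miR-25-3p, which share the seed AUUGCAC with 4 other mouse miRNAs of the table, differ over their 21 aligned bases at 3 positions, U1C, C14U and C18U. The probe sequences of the array were not used here, so cross-hybridisation within these groups was not tested.

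The miR-17~92 hairpins lie at chr14:115043671-115044506 on the plus strand, 6 hairpins within 836 bases. The annotated span of the host transcript Mir17hg, chr14:115044390-115046728, overlaps only the end of this stretch, where miR-92a-3p lies. Those of miR-106b~25 are 3 hairpins within 498 bases at chr5:138165321-138165818 on the minus strand, inside the span of Mcm7, a gene of the DNA replication helicase. The 6 hairpins of miR-106a~363 occupy 875 bases at chrX:52741693-52742567 on the minus strand. Mature miR-19b-3p is encoded at chr14:115044358-115044380 and chrX:52741991-52742013, and miR-92a-3p at chr14:115044476-115044496 and chrX:52741854-52741874, with the same sequence at both sites, so an array signal does not tell which locus it came from.

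Of the 10 members, 5 were detected on all 12 arrays, namely miR-19b-3p, miR-92a-3p, miR-106b-5p, miR-93-5p and miR-25-3p. MiR-17-5p and miR-18a-5p were detected on no array, and so were the 20 listed relatives that had a row on the array, which include all passenger strands of the clusters. MiR-20a-5p was detected on 10 arrays, and miR-19a-3p and miR-20b-5p on 8. Neither of these last was detected on any C array or on D + P replicate 1.

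The arrays differed in brightness along the same lines. Summed over detected miRNAs, the signal of the 4 arrays without miR-19a-3p and miR-20b-5p was the lowest of the 12, at 39661 for D + P replicate 1 and between 27107 and 35028 for C. The other arrays reached sums between 48104 (a D array) and 89040 (a C + P array). Control features followed the same pattern, the mean log2 signal of 10 of them being 10.29 to 10.56 on C arrays, 10.29 on D + P replicate 1, and 10.86 to 11.48 on the others. What brightness contributes to the missing detections was not tested. The labels give heart muscle as the tissue, but their extraction text names macrophages as the source of the RNA. Of the muscle markers, 5 of 6 were detected on all arrays (miR-208b-3p on none), with summed signals of 3140.4 to 17645, against 14.1 to 175 for white blood cell markers, while liver miR-122-5p and brain miR-124-3p and miR-9-5p were undetected throughout.

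**Figure D1:**
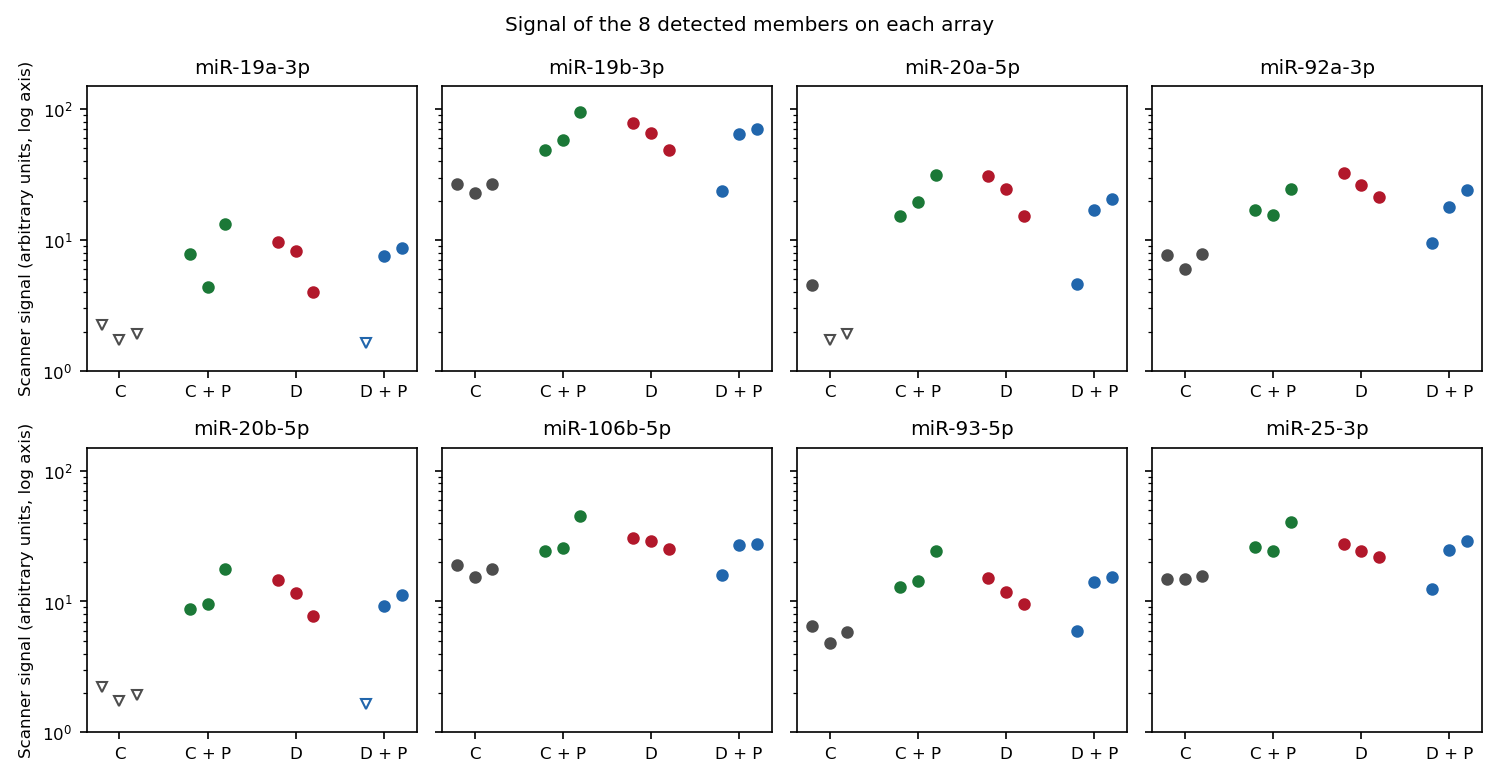
Scanner signal (arbitrary units, log axis) of the 8 detected members on each of the 12 arrays, by group. Filled circles are detected values, and open triangles mark arrays on which the miRNA was not detected, drawn at the lowest detected signal of that array. All 3 C arrays lie below all D and C + P arrays in every panel.

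Before normalization, each of the 5 members detected everywhere was lower in all C hearts than in any D or C + P heart. MiR-19b-3p, the brightest member, had signals of 26.8, 22.8 and 27.0 in C, 49.0, 58.2 and 95.2 in C + P, 78.4, 66.2 and 49.0 in D, and 23.8, 64.3 and 70.9 in D + P. MiR-92a-3p had signals of 7.65, 6.01 and 7.77 in C, 16.9, 15.6 and 24.4 in C + P, 32.3, 26.3 and 21.3 in D, and 9.43, 17.96 and 24.03 in D + P. For both, the 3 C arrays stood below all arrays of D and C + P, and D + P replicate 1 lay near the C arrays while the other two D + P arrays lay among those of D and C + P.

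The 3 members that were not detected everywhere followed the same order. MiR-20a-5p had a signal of 4.53 on 1 C array and was undetected on the other two, against 15.4, 19.4 and 31.6 in C + P, 30.6, 24.4 and 15.2 in D, and 4.62, 16.8 and 20.7 in D + P. MiR-20b-5p, undetected in all C hearts, gave 8.83, 9.62 and 17.8 in C + P, 14.6, 11.5 and 7.74 in D, and 9.25 and 11.2 in the D + P hearts in which it was detected. MiR-19a-3p, also undetected in all C hearts, gave 7.81, 4.39 and 13.2 in C + P, 9.66, 8.22 and 4.01 in D, and 7.55 and 8.66 in the same D + P hearts. In each of the 3, the D and C + P arrays overlapped one another.

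The miR-106b~25 members had the same order. MiR-106b-5p had signals of 19.1, 15.3 and 17.7 in C, 24.1, 25.6 and 45.1 in C + P, 30.8, 29.2 and 25.1 in D, and 15.9, 27.0 and 27.7 in D + P. MiR-25-3p had 14.8, 14.8 and 15.7 in C, 26.2, 24.4 and 40.6 in C + P, 27.7, 24.3 and 21.7 in D, and 12.5, 24.5 and 28.8 in D + P. MiR-93-5p, the dimmest of the 3 clustered members, had 6.45, 4.82 and 5.88 in C, 12.9, 14.3 and 24.1 in C + P, 15.1, 11.7 and 9.51 in D, and 6.00, 14.1 and 15.3 in D + P. Again C lay below D and C + P on all arrays. Raw signals without overlap were frequent, at 71.1% of the 128 miRNAs detected on all arrays for D against C and 86.7% for C + P against C.

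Part of this difference was shared by the whole array. The median of the 128 miRNAs detected on all arrays was 1.70-fold higher in D than in C on the raw scale. Against that shift, miR-92a-3p was 3.70-fold and miR-19b-3p 2.49-fold higher in D, miR-93-5p 2.10-fold, and miR-25-3p and miR-106b-5p 1.62-fold and 1.63-fold, the last pair being close to the array median. Between C + P and C the median was 2.22-fold, and the members ranged from 1.75-fold for miR-106b-5p to 2.90-fold for miR-93-5p. These raw folds carry no test, and the differences below are from values normalized by cyclic loess, in which each array is brought to the same level over the miRNAs tested.

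**Figure D2:**
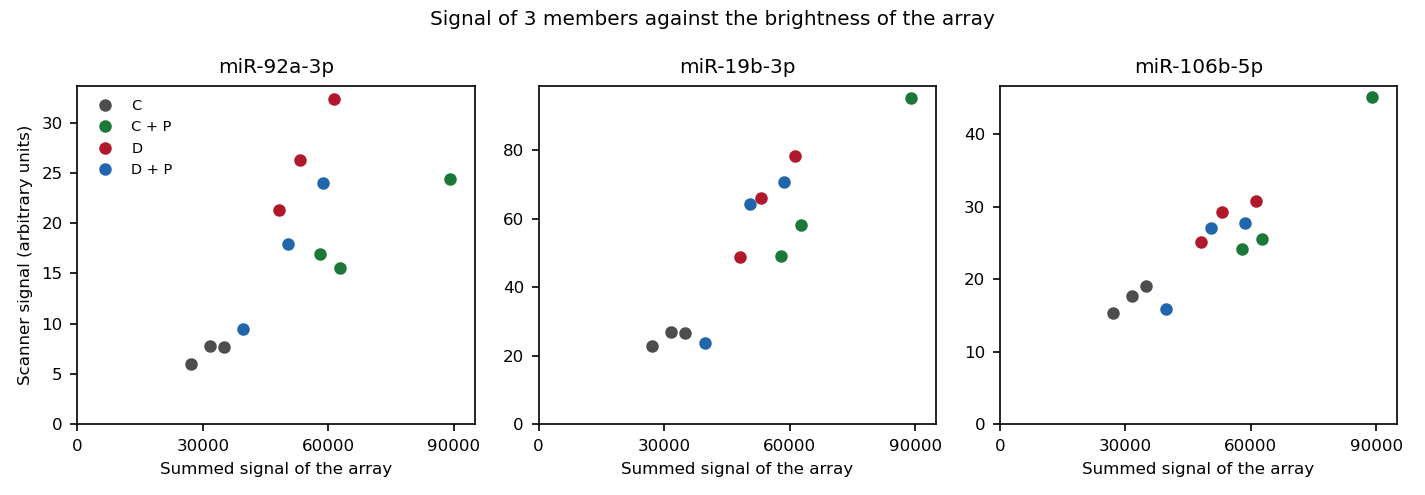
Scanner signal of miR-92a-3p, miR-19b-3p and miR-106b-5p (arbitrary units) against the summed signal of detected miRNAs on the same array, 1 point per array. MiR-106b-5p tracked brightness in all 4 groups, from 15.3 to 45.1, whereas miR-92a-3p was at 21.3 to 32.3 on the D arrays, with sums of 48104 to 61254, and at 15.6 to 24.4 on the C + P arrays, with sums of 57895 to 89040.

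Diabetic hearts were compared with control hearts to ask whether diabetes was accompanied by a change of these miRNAs. MiR-92a-3p was 2.63-fold higher in D than in C (log2 difference 1.39, SE 0.20, adjusted p = 0.000839, limma), the second largest increase among the 128 miRNAs. MiR-19b-3p was 1.58-fold higher (log2 0.66, SE 0.19, adjusted p = 0.0142, limma) and miR-93-5p 1.64-fold higher (log2 0.71, SE 0.22, adjusted p = 0.0203, limma). MiR-25-3p and miR-106b-5p, clustered with miR-93-5p, did not pass the threshold, with log2 differences of 0.09 (95% interval -0.26 to 0.44) and 0.07 (-0.17 to 0.32). Thus 3 of 5 members were called higher and 0 lower, beside 24.2% higher and 50% in either direction over all 128 miRNAs, and the median log2 difference was 0.66 for the members and 0.02 for all 128.

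The normalized log2 signal of miR-92a-3p was 3.36 ± 0.09 in C and 4.76 ± 0.11 in D (SD, n = 3), and no array of C reached any array of D. For miR-19b-3p it was 5.22 ± 0.04 in C and 5.88 ± 0.19 in D, and for miR-93-5p 3.01 ± 0.03 and 3.72 ± 0.10, again without overlap. Groups without overlap were common, at 69.5% of the 128 miRNAs. MiR-106b-5p was 4.68 ± 0.02 in C and 4.75 ± 0.08 in D, and miR-25-3p 4.47 ± 0.15 and 4.56 ± 0.03, and both overlapped.

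The calls differed in how far they held. That of miR-92a-3p was kept under 12 of 12 other settings of normalization, filter or model and without any single array, with log2 differences of 0.64 to 1.89, and was lost in 1 added setting, with the control feature signal as a covariate (0.97, adjusted p = 0.108). That of miR-93-5p was lost when the 209 miRNAs detected on all arrays of a group were normalized together (0.18, adjusted p = 0.367) and turned to -0.78 (adjusted p = 0.237) in the authors' normalized values. Without C replicate 2 or without D replicate 1, miR-19b-3p (adjusted p = 0.0512 and 0.0531) and miR-93-5p (adjusted p = 0.0563 and 0.0531) no longer passed, and 1 member was called instead of 3. MiR-93-5p also lost its call without D replicate 2 (0.65, adjusted p = 0.0635) and with 75th percentile scaling (0.23, adjusted p = 0.293). The same held with 16 added before log2 (0.23, adjusted p = 0.0778) and with all miRNAs kept (0.30, adjusted p = 0.871). MiR-19b-3p lost its call with 75th percentile scaling (0.47, adjusted p = 0.0518), in the authors' values (0.61, adjusted p = 0.0618) and with all miRNAs kept (0.66, adjusted p = 0.275). With the control feature covariate miR-93-5p (adjusted p = 0.912) and miR-19b-3p (adjusted p = 0.742) were not called either. Summed raw signals of white blood cell markers were 16.4 to 32.7 in C and 44.5 to 65.8 in D, with 1 of 3 tested called higher. Those of fibroblast markers were 90.5 to 110.5 and 169 to 232, with 2 of 3 called higher (median log2 difference 0.65), and those of red blood cell markers 499 to 508 and 760 to 965, with 0 of 3 called higher and 1 called lower. These sums are not normalized, and the array median was 1.70-fold higher in D than in C on the raw scale. Of the muscle markers 1 of 5 tested was called higher and 1 lower. For smooth muscle 1 of 2 was called higher and 0 lower, and for endothelium 0 of 1 either way. The part of these markers in the members' differences was not tested.

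**Figure D3:**
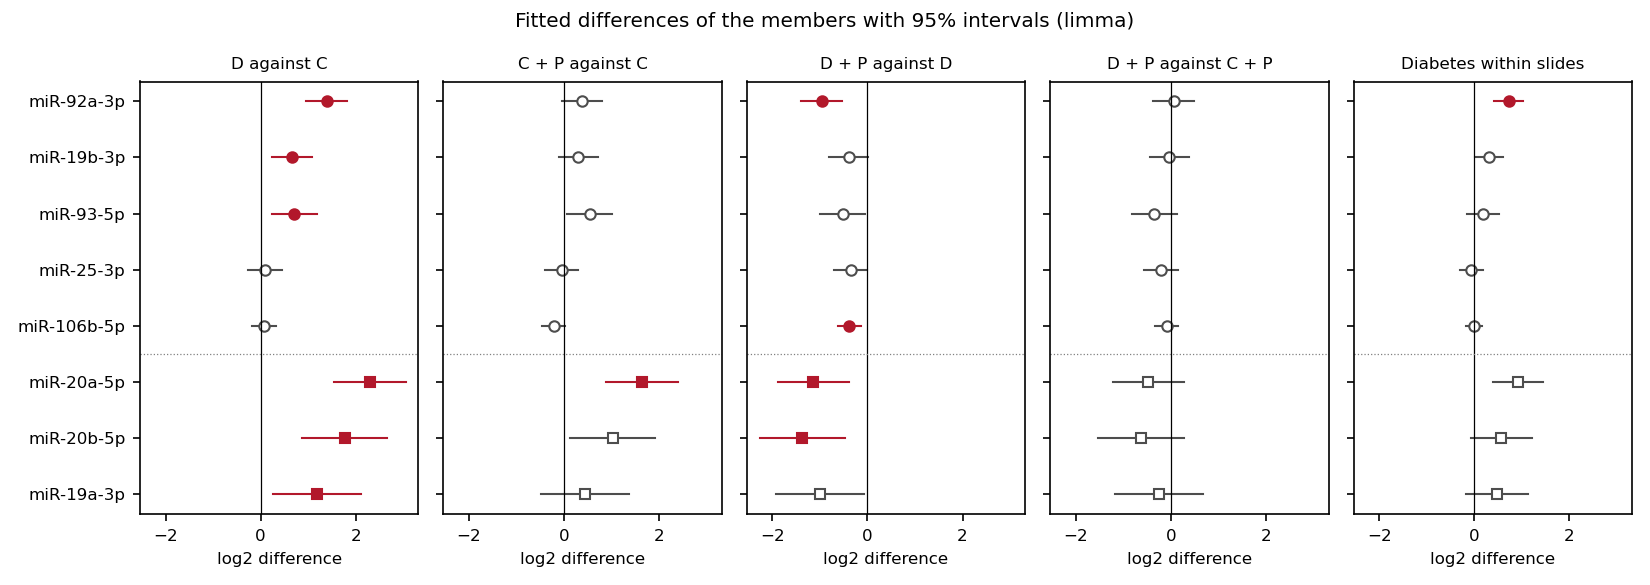
Log2 differences of the members in 5 comparisons, with 95% intervals from limma. Circles are the 5 members detected on all arrays (fit over 128 miRNAs), squares the 3 detected on some (fit over 209 miRNAs, undetected values at the lowest detected signal), and filled red symbols passed an adjusted p of 0.05. MiR-92a-3p (1.39) and miR-20a-5p (2.30) lie farthest from 0 for D against C among the circles and the squares.

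MiR-20a-5p, miR-20b-5p and miR-19a-3p could be compared only with undetected values set to the lowest detected signal of their array, in a fit over 209 miRNAs. They entered this fit because all D and C + P arrays detected them, so their selection favoured a difference from C, and the adjusted p-values of limma against C are given as output of the fit, not as support. MiR-20b-5p was at least 3.40-fold higher (log2 1.77, SE 0.41, adjusted p = 0.0101) and miR-19a-3p at least 2.28-fold higher (log2 1.19, SE 0.42, adjusted p = 0.0422), both against C arrays that had no detected value. MiR-20a-5p, with the other two C values set in this way, was at least 4.93-fold higher (log2 2.30, SE 0.34, adjusted p = 0.00215). In this fit 24.4% of the 209 miRNAs were called higher and 46.9% in either direction, and the same fit gave 1.10 for miR-92a-3p (adjusted p = 0.00294) and 0.70 for miR-19b-3p (adjusted p = 0.0236). The calls of all 3 were lost in the authors' normalized values (adjusted p = 0.0538 to 0.0811), with the control feature covariate, and when all miRNAs on the array were kept. Leaving out any C array, C + P replicate 3, or D replicate 1 or 2 also ended the call of miR-19a-3p (adjusted p = 0.0567 to 0.125).

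Ratios between members on the same array are not altered by scaling that array, so they show whether members moved unequally. The ratio of miR-92a-3p to miR-25-3p, which share a seed but belong to different transcripts, was 0.518, 0.408 and 0.494 in C, 0.646, 0.638 and 0.601 in C + P, 0.755, 0.732 and 0.835 in D + P, and 1.17, 1.08 and 0.984 in D. The 4 groups did not overlap, in the order C, C + P, D + P and D. From C to D the ratio differed by 1.19 on the log2 scale (2.28-fold, exact two-sided permutation p = 0.1, the smallest that 3 against 3 arrays allow, so that none of the 10 ratios computed could pass before or after adjustment). It was 1.07 after cyclic loess, and 0.60 with overlapping groups in the authors' values.

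Within the miR-106b~25 transcript, the ratio of miR-25-3p to miR-106b-5p was 0.774, 0.966 and 0.889 in C, 1.09, 0.954 and 0.900 in C + P, 0.901, 0.832 and 0.866 in D, and 0.784, 0.909 and 1.04 in D + P. All 4 groups overlapped, and D and C differed by -0.01 on the log2 scale (exact permutation p = 1). Between transcripts, the ratio of miR-19b-3p to miR-106b-5p was 1.40, 1.49 and 1.53 in C against 2.55, 2.26 and 1.95 in D and 2.03, 2.28 and 2.11 in C + P. Both groups stood above C (log2 0.61 and 0.54), and D + P, at 1.49, 2.38 and 2.56, spanned the range of C and D. In the authors' values these differences from C were 0.26 and 0.30. The ratio of miR-92a-3p to miR-19b-3p, encoded by the same 2 loci, was 0.286, 0.264 and 0.288 in C and 0.413, 0.397 and 0.436 in D, a log2 difference of 0.57 without overlap. It was 0.39 after cyclic loess, and 0.37 with overlapping groups in the authors' values.

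MiR-20a-5p and miR-20b-5p, on different chromosomes and 2 bases apart, kept a narrow ratio of scanner signals wherever both were detected. It ran from 1.96 to 2.12 in D and from 1.74 to 2.01 in C + P, and was 1.82 and 1.85 on the pair of D + P arrays with both. In the authors' values it was wider, at 0.814 to 2.22 in D, 3.29 to 6.00 in C + P and 3.81 to 4.94 in D + P. It had no value in C or on D + P replicate 1, so its spread is not comparable with that of ratios over all arrays. The ratio of miR-93-5p to miR-106b-5p, of 1 transcript, was 0.316 to 0.338 in C and 0.380 to 0.491 in D. In C + P it was 0.535 to 0.559, and in D + P 0.377 to 0.553. The D to C difference of this last ratio was 0.36 in scanner signals, 0.12 with overlap after cyclic loess, and -1.14 with overlap in the authors' values.

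**Figure D4:**
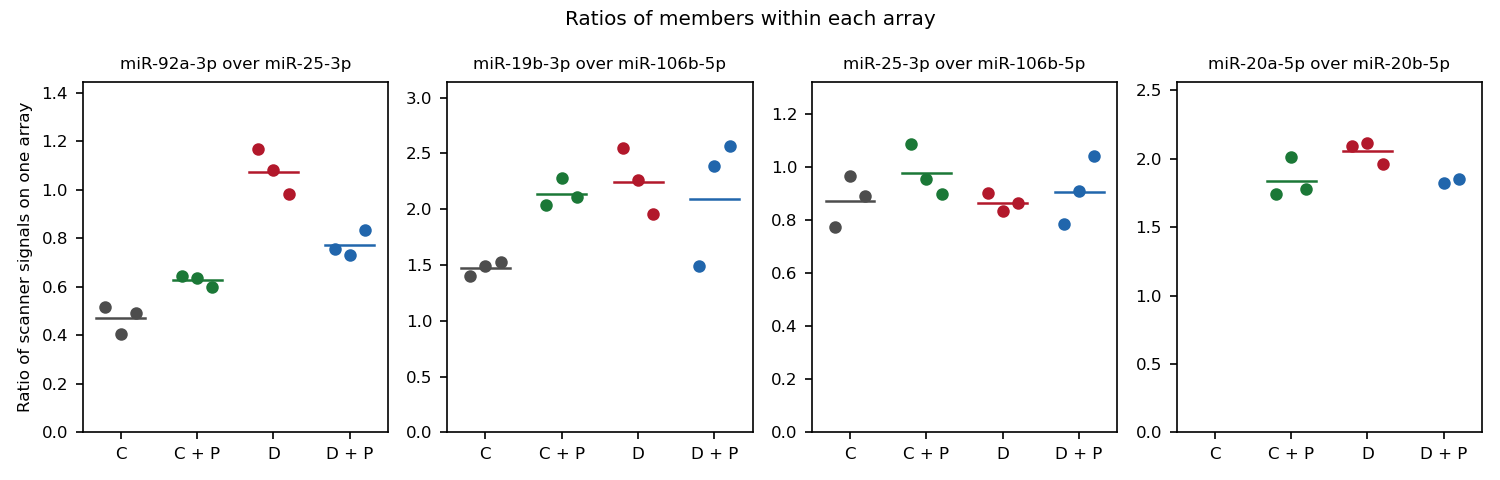
Ratios of scanner signals of 2 members on the same array, by group, with 1 point per array and lines at the group mean of the log2 ratios where all 3 arrays have a value. The ratio of miR-92a-3p to miR-25-3p separates the 4 groups (0.408 to 0.518 in C, 0.984 to 1.17 in D), while that of miR-25-3p to miR-106b-5p stays between 0.774 and 1.09.

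Pargyline in control hearts was examined next, a comparison that also crosses slides. None of the 5 members detected on all arrays was called by limma (0 of 5, 1 at an unadjusted p under 0.05), beside 36.7% of the 128 miRNAs. MiR-93-5p came nearest, at a log2 difference of 0.54 (SE 0.22, adjusted p = 0.0662). MiR-106b-5p was at -0.22 (adjusted p = 0.135), miR-92a-3p at 0.38 (adjusted p = 0.137), miR-19b-3p at 0.30 (adjusted p = 0.209) and miR-25-3p at -0.05. In the wider fit miR-20a-5p was called higher (log2 1.64, SE 0.34, adjusted p = 0.0160), where 8.13% of the 209 miRNAs were, and miR-20b-5p (1.02, adjusted p = 0.0894) and miR-19a-3p (0.44, adjusted p = 0.462) were not. These members were selected as described for D against C, so these adjusted p-values too are output of the fit, not support. The call of miR-20a-5p, which was detected on 1 C array, was lost in the authors' values (adjusted p = 0.114), when all miRNAs were kept, with the control feature covariate, with the replicate number as a block (adjusted p = 0.0532) and without C replicate 2 or 3 or C + P replicate 2 or 3 (adjusted p = 0.0547 to 0.0824). Of the markers, 2 of 3 tested for white blood cells and 2 of 3 for fibroblasts were called higher, with summed raw signals of 94.7 to 175 and 238 to 429 in C + P. On the raw scale the array median was 2.22-fold higher than in C. The part of these markers was not tested. The count of 0 changed with the fit. When only C and C + P were fitted, 3 members were called (miR-19b-3p, miR-92a-3p and miR-93-5p), and by the methods' t-test also 3 (miR-19b-3p, miR-93-5p and miR-106b-5p), with 4 called without D + P replicate 1 and 2 without D + P replicate 3. The share of all miRNAs called under these settings is not given, so these counts are not read as a result about the members.

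Diabetic hearts with and without pargyline were compared to ask whether MAO inhibition altered the miRNAs of diabetic hearts, again across slides. All 5 members lay lower in D + P than in D, and 2 were called, beside 27.3% of the 128 miRNAs called lower and 53.9% called either way. MiR-92a-3p fell by 0.96 on the log2 scale (SE 0.20, adjusted p = 0.00999, limma), to 3.80 ± 0.46 in D + P from 4.76 ± 0.11 in D (SD, n = 3), and miR-106b-5p fell by 0.38 (SE 0.11, adjusted p = 0.0216, limma), to 4.36 ± 0.10 from 4.75 ± 0.08. MiR-93-5p, miR-19b-3p and miR-25-3p were at -0.52 (adjusted p = 0.0592), -0.39 (adjusted p = 0.0939) and -0.35 (adjusted p = 0.0810). In the wider fit miR-20a-5p fell by 1.14 and miR-20b-5p by 1.37 (both adjusted p = 0.0254, with 23.4% of the 209 miRNAs called lower, and with miR-20b-5p undetected on D + P replicate 1), and miR-19a-3p was at -0.999 (adjusted p = 0.0677). All D arrays but not all D + P arrays detected miR-20b-5p and miR-19a-3p, so their selection favoured D here too. Their adjusted p-values are given as output of the fit, not as support.

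These calls were among the weaker ones. Before normalization all 5 members overlapped between D and D + P, where 28.9% of the 128 miRNAs did not, and D + P replicate 1 had the lowest signal of its group for each member. None of these 5 was called with D and D + P fitted alone, by the methods' t-test, with 75th percentile scaling, without normalization or in the authors' values. Of the same 5, 1 was called without D replicate 2, and all 5 without D + P replicate 3, and the share of all miRNAs called in these fits is not given. Among the members of the wider fit, miR-19a-3p was called lower in the authors' values (-3.18, adjusted p = 0.0111, limma), where miR-20b-5p also kept its call. MiR-20a-5p and miR-20b-5p lost their calls without D replicate 1 or 2, and miR-20a-5p also without D + P replicate 1 (-0.65, adjusted p = 0.0871). Without that array miR-20b-5p was at -0.70 (adjusted p = 0.0139). MiR-20a-5p and miR-20b-5p also lost their calls with 75th percentile scaling, without normalization, with all miRNAs kept and with the control feature covariate (adjusted p = 0.15 to 0.389). That of miR-20a-5p was lost with quantile normalization (adjusted p = 0.0677) and in the authors' values (adjusted p = 0.336) too. White blood cell markers moved with the members here, 3 of 3 tested being called lower in D + P than in D (median log2 difference -1.09), with summed signals of 14.1 to 67.6 in D + P. Of the fibroblast markers 2 of 3 were called lower, with sums of 73.7 to 218, and the part of both was not tested.

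Between D + P and C + P, both on 1 slide, no member was called by limma (0 of 5, and 0 at an unadjusted p under 0.05) beside 13.3% of the 128 miRNAs. Log2 differences were 0.06 for miR-92a-3p (95% interval -0.37 to 0.49), -0.03 for miR-19b-3p (-0.45 to 0.38), -0.35 for miR-93-5p (-0.82 to 0.13), -0.21 for miR-25-3p (-0.57 to 0.14) and -0.09 for miR-106b-5p (-0.34 to 0.15). The D + P group was the most spread, with SDs of 0.46 for miR-92a-3p, 0.44 for miR-19b-3p and 0.56 for miR-93-5p, and without D + P replicate 3, 1 member was called. None of the 3 members of the wider fit was called, beside 5.74% of the 209 miRNAs, at -0.48 for miR-20a-5p, -0.63 for miR-20b-5p and -0.25 for miR-19a-3p. White blood cell markers did differ here, 3 of 3 tested being called lower in D + P than in C + P (median log2 difference -1.68). So did fibroblast markers, with 2 of 3 called lower (median -0.73), whereas 1 of 3 red blood cell markers was called higher and 0 lower. Their part was not tested.

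The diabetes effect was thus set side by side under vehicle and under pargyline, and its difference tested as an interaction. MiR-92a-3p differed by 1.39 under vehicle and 0.06 under pargyline, an interaction of -1.34 (SE 0.28, adjusted p = 0.00344, limma). MiR-93-5p (0.71 and -0.35) had an interaction of -1.06 (SE 0.31, adjusted p = 0.00987) and miR-19b-3p (0.66 and -0.03) one of -0.70 (SE 0.27, adjusted p = 0.0351). The call of miR-19b-3p was lost without any 1 of 8 arrays, namely those of C and C + P and D replicates 1 and 2 (adjusted p = 0.0539 to 0.0749), and its value was -0.41 without D + P replicate 1. That of miR-93-5p was lost when the 209 miRNAs were normalized together (-0.40, adjusted p = 0.157). With 75th percentile scaling miR-93-5p (-0.30, adjusted p = 0.27) and miR-19b-3p (-0.40, adjusted p = 0.2) lost their calls. With all miRNAs on the array kept, miR-93-5p (-0.50, adjusted p = 0.482), miR-19b-3p (-0.71, adjusted p = 0.44) and miR-92a-3p (-1.04, adjusted p = 0.0972) lost theirs. For miR-25-3p and miR-106b-5p the interaction was -0.30 (adjusted p = 0.266) and -0.16 (adjusted p = 0.378). These 3 of 5 calls stand beside 70.3% of all 128 miRNAs, 35.2% in this direction. With the 209 miRNAs, 29.2% of which were called lower, miR-20a-5p had an interaction of -2.78 (adjusted p = 0.00365) and miR-20b-5p one of -2.40 (adjusted p = 0.00707), both resting on undetected C arrays and on members selected as described for D against C. With all miRNAs kept, miR-20a-5p (-2.88, adjusted p = 0.0972) and miR-20b-5p (-2.17, adjusted p = 0.155) lost these calls too. No member kept an interaction call with the control feature covariate or in the authors' values, except miR-20b-5p in the latter.

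Averaged over both slides, so that each diabetic array was set against non-diabetic arrays of its own slide, the effect of diabetes reached the threshold for 2 of the 128 miRNAs (1.56%), and 0.781% of them were called higher. The miRNA called higher was miR-92a-3p (log2 0.73, SE 0.14, adjusted p = 0.0141, limma), the largest increase of the 128, and the one called lower was the white blood cell marker miR-146a-5p (-0.91), which is no member. For miR-92a-3p this is the mean of 1.39 between D and C, which already shared a slide, and 0.06 between D + P and C + P. It thus rests on the same C and D arrays as the call of D against C. MiR-19b-3p was at 0.31 (adjusted p = 0.281), miR-93-5p at 0.18, miR-106b-5p at -0.01 and miR-25-3p at -0.06. In the wider fit miR-92a-3p was at 0.62 (adjusted p = 0.0271, with 1.91% of the 209 called) and miR-20a-5p at 0.91 (adjusted p = 0.0624). The call of miR-92a-3p was lost with quantile normalization (0.63, adjusted p = 0.0605), without normalization (0.83, adjusted p = 0.146) and in the authors' values (0.44, adjusted p = 0.383). It was also lost with all miRNAs kept (0.68, adjusted p = 0.127) and without C + P replicate 2 or 3 (0.70 each, adjusted p = 0.0545 and 0.0551).

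**Figure D5:**
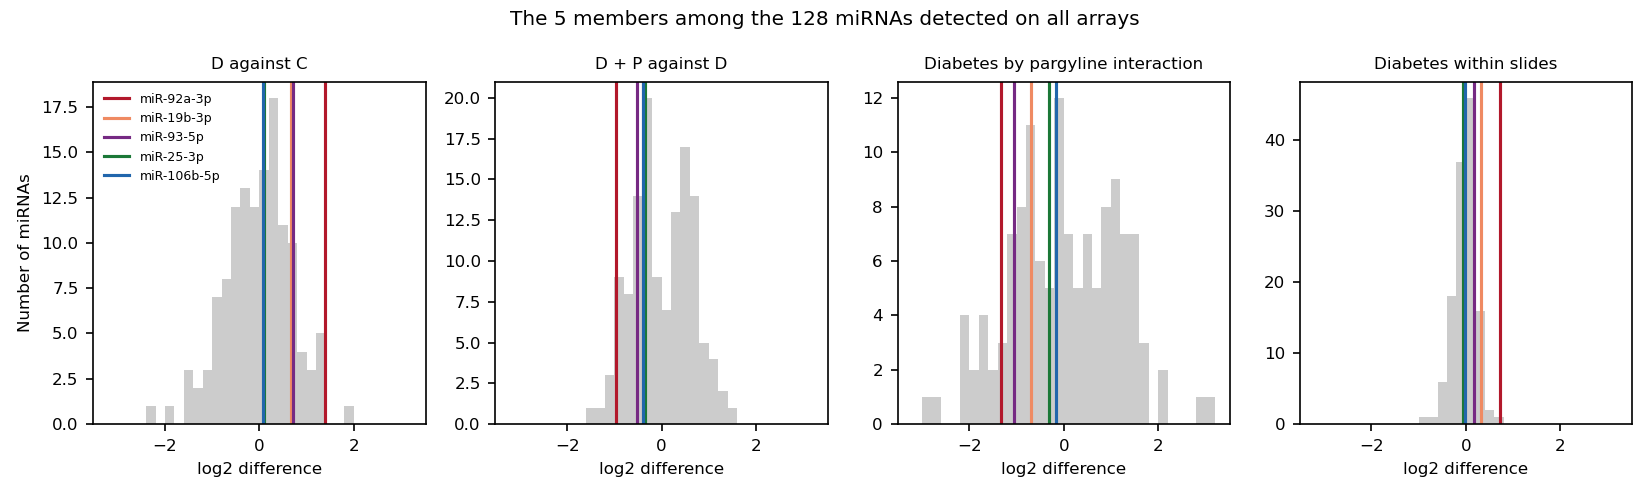
Distribution of log2 differences over the 128 miRNAs detected on all arrays (grey bars, number of miRNAs) in 4 comparisons, with the 5 members as coloured lines. MiR-92a-3p lies at 1.39 for D against C and at 0.73 for diabetes within slides, at the upper edge of the 128, while miR-106b-5p and miR-25-3p lie near 0 in both.

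The average profile of the 5 members detected everywhere, each centred on its own mean over the 12 arrays, was -0.26, -0.21 and -0.17 in C, 0.05, -0.10 and -0.01 in C + P, 0.41, 0.44 and 0.28 in D, and -0.56, -0.03 and 0.15 in D + P on the normalized log2 scale. It was highest in D, and D + P replicate 1 lay below all other arrays. By the root mean square difference from this profile over the 12 arrays, the nearest miRNAs outside the clusters were miR-34a-5p (0.11), miR-103-3p (0.12), miR-125b-5p (0.13), miR-148a-3p and miR-378a-5p (0.15 each), against a median of 0.43 for the 123 other miRNAs. Of the members, miR-19b-3p lay nearest to their average profile (0.11) and miR-92a-3p farthest (0.31), with miR-93-5p at 0.15, miR-25-3p at 0.19 and miR-106b-5p at 0.23. Each member is part of this average, which brings the members nearer to it. Even so, miR-92a-3p lay farther from it than the outside miRNA of rank 44 (0.30), and miR-106b-5p farther than that of rank 30 (0.225).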

How the data were processed

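MiRNAs were measured on 12 one-colour Agilent arrays, 1 per mouse. Per the file headers, the deposited array files hold a scanner intensity, its error and, as another kind of value, a detection flag for 1881 miRNAs. They are not normalized, and 0.1 stands for an undetected miRNA. A further deposited table holds intensity values of 209 miRNAs and 10 control features that the authors normalized by cyclic loess. RNA input was 200 ng per the labels.

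Here the intensities of 128 miRNAs, detected on 12 of 12 arrays, were log2 transformed, normalized by cyclic loess (span 0.7, 3 iterations) and fitted over all groups with limma 3.58.1 in R 4.3.3. Adjustment for multiple testing was by Benjamini-Hochberg over the miRNAs of a fit, at a threshold of 0.05. A second fit took the 209 miRNAs that every array of some group detected and replaced undetected values by the lowest detected signal of the array. An "at least" fold takes that signal for undetected arrays and holds under this normalization only. The fit was tested on simulated data. The number of arrays limits the precision.

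The members, their relatives, the marker lists, the nearest-profile rule and the tests were chosen with earlier results of these data known. All members were named, relatives only where detected, and the 5 nearest profiles by root mean square difference. MiR-106a-5p was not analysed here. The labels number the mice of each group, but same-numbered arrays did not deviate together (4 of 18 pairs correlated above 0.1, range -0.37 to 0.49), so no pairing was used. Alternatives were other normalizations, filters, offsets and models, each array left out in turn and, chosen after seeing the data, the control feature covariate and the other normalizations of the second fit and of the ratios.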

Additional observations from a re-analysis of the deposited data

Results flagged for a closer look

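The 5 members below were marked because the effect of diabetes differed between vehicle and pargyline by the interaction test of limma. The values are the log2 difference of D + P against C + P minus that of D against C. They were -1.34 for miR-92a-3p, -1.06 for miR-93-5p and -0.70 for miR-19b-3p among the 128 miRNAs detected on all arrays, and -2.78 for miR-20a-5p and -2.40 for miR-20b-5p in the fit over 209 miRNAs. The C values of this last pair rest on undetected arrays, and both entered the fit through groups that detected them, as described for D against C. With all miRNAs on the array kept, none of the 5 members was called. The call of miR-19b-3p was lost without any 1 of 8 arrays (adjusted p = 0.0539 to 0.0749). Of the 128 miRNAs, 70.3% passed the same test.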

How the results depend on the processing

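Of 5 members, 3 were called in the interaction, 3 in D against C, 2 in D + P against D, 1 within slides (diabetes) and 0 each in C + P against C and D + P against C + P. Leaving out each array in turn gave 2 to 3, 1 to 3, 1 to 5, 0 to 3, 0 to 4 and 0 to 1 in that order. With the replicate number as a block the counts stayed at 3, 3, 2, 1, 0 and 0, although the numbers do not pair the mice, and 2 other calls were lost, those of miR-19a-3p for D against C (1.19, adjusted p = 0.0639) and of miR-20a-5p for C + P against C (1.64, adjusted p = 0.0532). The arrays whose omission changed the counts were C replicate 2 and D replicate 1 (1 each for D against C), D replicate 2 (2 for D against C), all C and C + P arrays and D replicates 1 and 2 (2 each for the interaction), D replicate 2 and D + P replicate 3 (1 and 5 for D + P against D), D + P replicates 1 and 3 (4 and 2 for C + P against C), D + P replicate 3 (1 for D + P against C + P), and C + P replicates 2 and 3 and D + P replicate 1 (0, 0 and 3 within slides).

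Scaling to the 75th percentile gave 1 for D against C, 0 for D + P against D and 1 for the interaction. Without normalization 5 members were called for C + P against C, 0 for D + P against D, 5 for the interaction and 0 within slides. The raw signals of 86.7% of the 128 miRNAs did not overlap between C + P and C. The authors' values gave 1, 0, 0 and 0 for D against C, D + P against D, the interaction and diabetes within slides, and so did keeping all miRNAs of the array. Quantile normalization gave 0 within slides. Fitting only the groups compared, and the methods' t-test, gave 0 for D + P against D and 3 for C + P against C. The control feature covariate gave 0 for D against C, 0 for D + P against D and 0 for the interaction. The causes were not tested. For counts under other settings and without single arrays, the share of all miRNAs called is not given here. Those counts show how the calls depend on processing and are not read as results about the members.

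Log2 differences changed sign as follows. Under percentile scaling they were -0.15 for miR-25-3p and -0.14 for miR-106b-5p in D against C, 0.14 for miR-93-5p and 0.02 for miR-25-3p in D + P against D, 0.08 for miR-19b-3p and 0.11 for miR-106b-5p in D + P against C + P, and 0.15 for miR-25-3p and 0.24 for miR-106b-5p in the interaction. Without normalization they were 0.97 for miR-25-3p and 0.81 for miR-106b-5p in C + P against C, -0.22 for miR-92a-3p in D + P against C + P, and 0.09 for miR-25-3p and 0.15 for miR-106b-5p within slides. In the authors' values miR-93-5p was at -0.78 in D against C, -0.60 in C + P against C, 0.35 in the interaction and -0.61 within slides, miR-25-3p at 0.10 and miR-19a-3p at -0.93 in C + P against C, miR-92a-3p at -0.11 in D + P against C + P, and miR-106b-5p at 0.03 within slides. With the 209 miRNAs miR-93-5p was at -0.02 within slides. Near 0 within slides, miR-106b-5p was at 0.01 with quantile normalization, with the 209 miRNAs and with 16 added, and at 0.02 with all miRNAs.

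The covariate gave -0.16 for miR-25-3p and -0.06 for miR-106b-5p in D against C, -0.23 for miR-19b-3p, -0.09 for miR-92a-3p, -0.16 for miR-93-5p, -0.64 for miR-19a-3p and -0.19 for miR-20b-5p in C + P against C, 0.28 for miR-19b-3p, 0.07 for miR-93-5p, 0.40 for miR-19a-3p, 0.14 for miR-20a-5p and 0.09 for miR-20b-5p in D + P against C + P, and 0.10 for miR-19b-3p, 0.11 for miR-25-3p, 0.06 for miR-106b-5p and 0.19 for miR-19a-3p in the interaction. With 1 array left out, values that changed sign ranged from -0.14 to 0.02 for miR-25-3p in C + P against C (above 0 without C replicate 2 or C + P replicate 2), from -0.13 to 0.02 for miR-25-3p (above 0 without D + P replicate 1) and from -0.04 to 0.02 for miR-106b-5p within slides. In D + P against C + P they ranged from -0.17 to 0.24 for miR-19b-3p and from -0.55 to 0.26 for miR-19a-3p, both above 0 without D + P replicate 1 only, and from -0.17 to 0.26 for miR-92a-3p, below 0 without D + P replicate 3 only. In the authors' values the ratios of miR-93-5p to miR-106b-5p and to miR-25-3p turned to -1.14 and -1.17 in D against C and to -0.43 and -0.71 in C + P against C, and that of miR-92a-3p to miR-25-3p to -0.05 in C + P against C.

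With 3 arrays a group, exact tests cannot go below 0.1. Members near background have only bounds in C. The probes of near-identical members, the slide and the array row limit all comparisons.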
